A study of Mus musculus with 10 samples.

Results

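The genes described here are 10 mouse genes of antigen presentation by major histocompatibility complex (MHC) class II, of 56893 genes in the deposited table. They were chosen by name, with earlier results of these data known. The 10 are H2-Aa, H2-Ab1 and H2-Eb1 (chains of the classical class II molecules), Cd74 (the invariant chain), H2-DMa, H2-DMb1, H2-DMb2, H2-Oa and H2-Ob (the peptide editors), and Ciita (the class II transactivator). All 10 were found in the table. They were measured by sequencing of polyadenylated RNA in primary T and B cells of the mouse spleen after CRISPR interference at promoters of Pou2f1, a method where a guide RNA brings a catalytically inactive Cas9 to a promoter to repress it. Pou2f1 encodes the octamer-binding transcription factor Oct-1. The 5 groups were T cells labelled Mock, T cells labelled sgRNA-P1, B cells labelled Mock, B cells labelled sgRNA-P1 and B cells labelled sgRNA-P2. By the study's design text, sgRNA-P1 went to the P1 promoter and sgRNA-P2 to the P2 promoter, and no T cells with sgRNA-P2 were analysed here. What the mock cells received, the number, strain and age of the mice, how the cells were selected and activated, and how the inactive Cas9 was delivered: none of this is given in the sources used here.

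MHC class II molecules carry peptides from endosomes to the surface of B cells, dendritic cells and macrophages, where CD4 T cells recognise them. Each classical molecule is a pair of an alpha and a beta chain that leaves the endoplasmic reticulum bound to the invariant chain. The DM molecule then exchanges the remaining invariant chain fragment for peptides, and the DO molecule, made chiefly by B cells, restrains DM. CIITA binds no DNA itself. It is recruited to the X and Y boxes of class II promoters by the RFX, CREB and NF-Y proteins already there, and its presence decides in most cells whether the genes are transcribed. Mouse T cells make little or no CIITA and, unlike human T cells, are known not to switch on class II on activation.

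Each group had 2 columns in the table, but within each group the difference between these columns was smaller than sampling noise. Over genes with 20 or more reads, the mean chi-square per gene between them was 0.00231 to 0.00283. Of all genes with at least 1 read, 99.95 to 99.98% lay within 1 read of a single count divided in a fixed proportion. The columns were therefore summed and counted as 1 sample, so each group is 1 library and no comparison of 2 groups has a replicate check or a p-value. The summed libraries held 28118839 to 71858511 reads. Levels are CPM (counts scaled to a fixed library total) after TMM scaling, and brackets after a value give its 95% interval, which covers counting error only. Pou2f1, the targeted gene, stood at 138, 66.1, 157, 91.1 and 86.5 CPM in mock T cells, sgRNA-P1 T cells, mock B cells, sgRNA-P1 B cells and sgRNA-P2 B cells, so it was lower in every guide library than in its mock. Its level in T cells is uncertain, because 3007 of its 16597 exonic bases overlap Cd247, a T cell gene of the opposite strand at 314 CPM in mock T cells. All 10 T cell markers were higher in mock T than in mock B cells and all 10 B cell markers higher in mock B cells, so the cell type labels and the markers go together.

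By the coordinates of the deposited table, 8 of the 10 genes lie on chromosome 17 within 224 kb, in the order H2-Oa (chr17:34311314-34314208), H2-DMa (chr17:34338515-34358075), H2-DMb2 (chr17:34362281-34370529), H2-DMb1 (chr17:34372046-34379204), H2-Ob (chr17:34457877-34473388), H2-Ab1 (chr17:34476663-34488393), H2-Aa (chr17:34501718-34506797) and H2-Eb1 (chr17:34524841-34535648). All are on the plus strand except H2-Aa. Ciita lies at chr16:10297923-10346282 and Cd74 at chr18:60936920-60945724, both on the plus strand. The submitters' processing notes name mm39 as the mouse build.

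RefSeq promoters (build GRCm38.p6, whose coordinates differ from those above) were matched for 7 of the 10 genes (not H2-Ab1, Ciita or Cd74), H2-DMa with 2 start sites, which gives 8 promoters. The 250 bases before each start were searched on both strands for 3 short cores of class II promoters: GCAAC from the X box that RFX binds, TGATG from the X2 box that CREB proteins bind, and ATTGG, the CCAAT sequence that NF-Y binds, read on the other strand. The octamer ATTTGCAT, which Oct-1 and its lymphoid relative Oct-2 bind, was searched too. The stretches around the ATTGG nearest the start are shown for the 6 genes in which it follows GCAAC or TGATG at a close spacing, because these are the boxes through which CIITA acts. Capitals mark the 3 cores where they stand on the strand shown, a core on the other strand is left in lower case, and each sequence reads 5′ to 3′ on the strand of its gene.

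H2-Aa, chr17:34287857-34287926, minus strand: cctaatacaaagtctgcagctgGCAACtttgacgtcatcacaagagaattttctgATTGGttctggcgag
H2-Eb1, chr17:34305753-34305822, plus strand: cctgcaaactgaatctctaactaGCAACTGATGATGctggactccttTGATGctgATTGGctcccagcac
H2-Oa, chr17:34092281-34092350, plus strand: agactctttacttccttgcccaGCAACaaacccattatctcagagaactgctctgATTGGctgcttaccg
H2-Ob, chr17:34238793-34238862, plus strand: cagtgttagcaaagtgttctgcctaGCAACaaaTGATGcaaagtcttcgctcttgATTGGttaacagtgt
H2-DMb1, chr17:34153075-34153144, plus strand: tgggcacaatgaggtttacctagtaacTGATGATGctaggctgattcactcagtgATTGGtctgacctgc
H2-DMb2, chr17:34145104-34145173, plus strand: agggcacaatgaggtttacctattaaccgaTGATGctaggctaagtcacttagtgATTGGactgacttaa

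In H2-Aa, H2-Eb1, H2-Oa and H2-Ob the first base of GCAAC lies 30 to 33 bases before that of ATTGG. The order GCAAC then ATTGG, with first bases 25 to 40 apart, was in 4 of the 8 promoters and in 0.673% of 32851 RefSeq promoters of the same length. TGATG followed by ATTGG, with first bases 20 to 35 apart, was also in 4 of the 8 (H2-DMb1, H2-DMb2, H2-Eb1 and H2-Ob) and in 0.816% of all. These spacings were chosen after the sequences were seen. Each core by itself is common: ATTGG was in 7 of the 8 and 33.8% of all, GCAAC in 5 and 29.9%, and TGATG in 6 and 34.5%. ATTTGCAT was in 0 of the 8 and in 1.60% of all promoters, which says only that these letters are not in these windows. H2-Ob and H2-Oa carry this spaced pair like H2-Aa and H2-Eb1, although the levels of the 4 genes in T cells were unlike.

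The plot of levels in the 5 libraries shows the main pattern: every class II gene was far higher in B cells than in T cells, and H2-Ob, H2-DMa and H2-Oa kept a larger percentage of their B cell level in T cells than the other 7 genes did. The 10 genes together took 2.24, 2.10 and 2.21% of all reads in mock, sgRNA-P1 and sgRNA-P2 B cells, and 0.0130 and 0.0131% in mock and sgRNA-P1 T cells. In bulk RNA, fewer cells that express a gene and less RNA per cell cannot be told apart. In each sentence of values below, the order is mock T, sgRNA-P1 T, mock B, sgRNA-P1 B and sgRNA-P2 B cells.

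**Figure D1:**
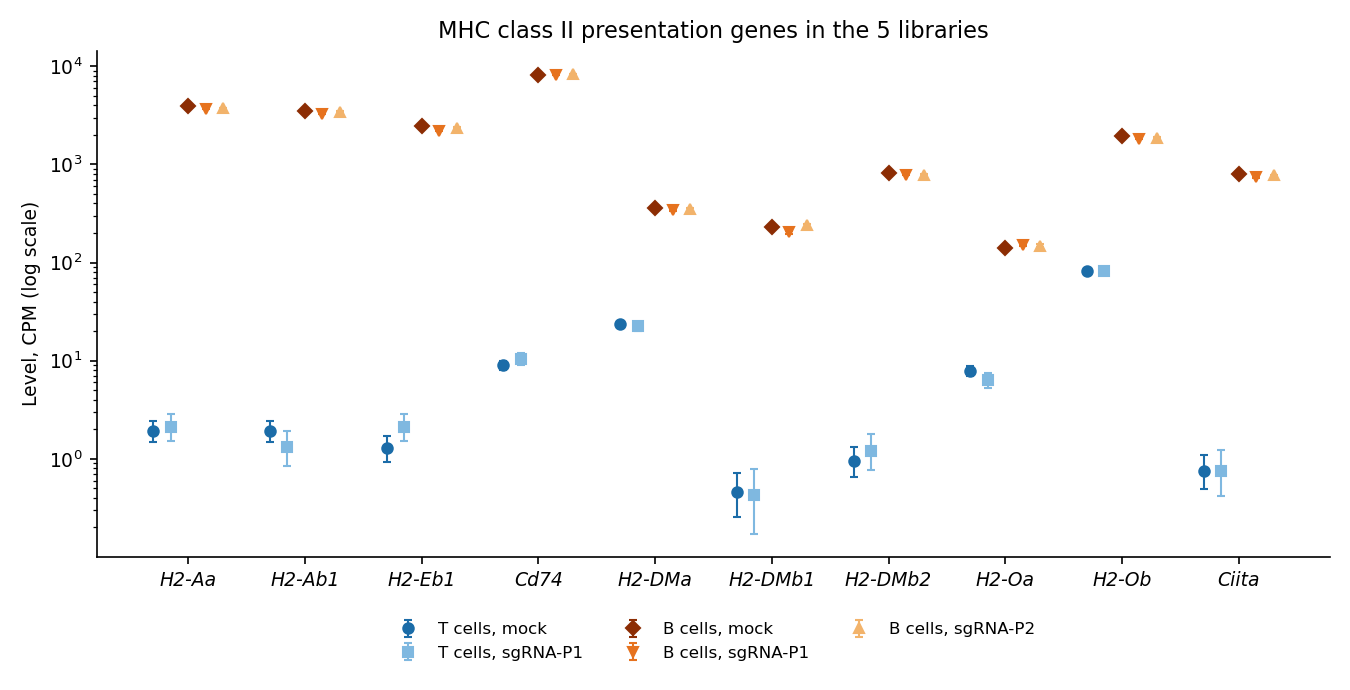
Level of each class II gene in the 5 libraries (CPM, log scale), with bars for the 95% counting interval, which is narrower than the marker in B cells. H2-Ob at 82.3 CPM, H2-DMa at 23.4, Cd74 at 8.96 and H2-Oa at 7.89 in mock T cells stand above the classical chains, and the 3 B cell libraries lie close together for every gene.

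The classical chains were among the most abundant class II transcripts of B cells. H2-Aa, the alpha chain of the I-A molecule, stood at 1.91, 2.13, 3943, 3694 and 3764 CPM. Its partner H2-Ab1, the beta chain, stood at 1.91, 1.33, 3508, 3268 and 3441 CPM. These T cell levels rest on few reads: 138 for each chain in the mock library, and 85 for H2-Aa and 53 for H2-Ab1 with sgRNA-P1. H2-Eb1, the beta chain of I-E, stood at 1.29, 2.10, 2438, 2214 and 2352 CPM. Its alpha chain H2-Ea was under 1 CPM in every library, whereas the related H2-Eb2 stood at 313 CPM in mock B cells and 0.361 in mock T cells. Per kilobase of annotated exons, H2-Aa stood at 0.740 to 0.764 of H2-Ab1 in the 3 B cell libraries. That length covers all exons annotated for a gene and need not be that of the transcripts made.

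Cd74 encodes the invariant chain, which blocks the peptide groove and sorts class II to endosomes. It was the highest of the 10 genes in B cells, at 8.96, 10.5, 8197, 8146 and 8343 CPM, and gave 36.7 to 38.1% of all class II reads there. In mock T cells it gave 6.90% of them. Per kilobase in mock B cells the order was Cd74 at 4882 CPM, H2-Ab1 at 1366, H2-Eb1 at 1254, H2-Aa at 1038, H2-DMb2 at 465, H2-Ob at 360, H2-DMb1 at 137, H2-DMa at 105, H2-Oa at 99.2 and Ciita at 83.2. The sgRNA-P1 B cells kept that order except that H2-Oa, at 107, came before H2-DMa, at 99.5. Only 1 library stands behind each value, so how far neighbours in this order differ beyond the spread between samples was not measured. The order also rests on the annotated exon lengths. By CPM alone H2-Aa, at 3943, was above H2-Ab1, at 3508, in mock B cells.

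H2-DMa encodes the alpha chain of DM, the editor that removes the invariant chain fragment, and stood at 23.4, 22.3, 362, 343 and 348 CPM. Its beta chain partners were unlike it in T cells. H2-DMb1 stood at 0.458, 0.426, 231, 203 and 239 CPM. H2-DMb2 stood at 0.957, 1.20, 812, 787 and 783 CPM. H2-DMa per kilobase was therefore 24.98 times H2-DMb1 in mock T cells and 0.765 times in mock B cells. The transcripts of the 2 beta chain genes were 92.8% identical over 1231 aligned bases, with identical runs of up to 221, so how reads were divided between them is uncertain. H2-DMa shares 360 of its 3448 exonic bases with Brd2, a chromatin reader of the opposite strand that stood at 482 CPM in the mock T library and 493 in mock B cells. No source used here says whether reads were counted by strand, and how much of the H2-DMa level in T cells came from Brd2 was not tested.

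H2-Ob encodes the beta chain of DO, the brake on DM, and was the most abundant class II transcript of T cells, at 82.3, 81.8, 1938, 1823 and 1875 CPM. The mock T cell value rests on 5933 reads, and no gene of the table overlaps its exons. H2-Oa, the alpha chain of DO, stood at 7.89, 6.39, 140, 151 and 149 CPM. The only gene that shares its exons, BC051537 on the opposite strand, stood at 0.250 CPM in mock T cells, below H2-Oa. H2-Ob per kilobase was 2.73 times H2-Oa in mock T cells and 3.63 times in mock B cells, so the 2 chains of DO were in like proportion in both cell types. Those of DM were not, as counted, with the part of Brd2 in the H2-DMa level untested. H2-Ob, H2-DMa and H2-Oa together gave 87.5 and 85.7% of class II reads in mock and sgRNA-P1 T cells, against 10.7 to 10.9% in the B cell libraries.

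Ciita, the coactivator that the class II promoters depend on, stood at 0.749, 0.751, 793, 740 and 774 CPM. The mock T cell value rests on 54 reads and its interval is 0.493 to 1.09 CPM. Ciita shares 3.45% of its exonic bases with Dexi, a gene of the opposite strand at 14.5 CPM in mock T cells. Its level in T cells was below that of Dexi.

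All 10 genes were at least 1.5-fold lower in mock T than in mock B cells, where 18.4% of 10804 genes at 5 CPM or more in either library were at least that much higher in B cells. Levels in mock B cells were 2061-fold those in mock T cells for H2-Aa, 1890-fold for H2-Eb1, 1833-fold for H2-Ab1, 1059-fold for Ciita, 915-fold for Cd74, 848-fold for H2-DMb2 and 504-fold for H2-DMb1. They were 23.6-fold for H2-Ob, 17.7-fold for H2-Oa and 15.4-fold for H2-DMa. The median log2 fold change of T against B cells was -9.77 over the 10 genes and 0.020 over all genes tested.

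The T cell level as a percentage of the B cell level can be set beside that of B cell markers in the same libraries. H2-DMa in mock T cells was at 6.47% [6.01 to 6.95] of mock B cells, H2-Oa at 5.65% [4.97 to 6.39] and H2-Ob at 4.25% [4.09 to 4.41]. The other class II genes ranged from 0.0485% (H2-Aa) to 0.198% (H2-DMb1). The 10 B cell markers ranged from 0.0215% (Ebf1) to 2.76% (Blk), with a median of 0.0534%, and 9 of the 10 were under 1%. The 3 class II genes at the top were thus above all 10 markers, and the intervals of each lay above that of Blk, a Src family kinase of B cells. The H2-DMa level in T cells may hold reads of Brd2, which shares 360 of its exonic bases, and that part was not tested. The pair of sgRNA-P1 libraries gave 6.51% for H2-DMa, 4.22% for H2-Oa and 4.49% for H2-Ob, again above every B cell marker, of which Blk was highest at 2.57%.

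**Figure D2:**
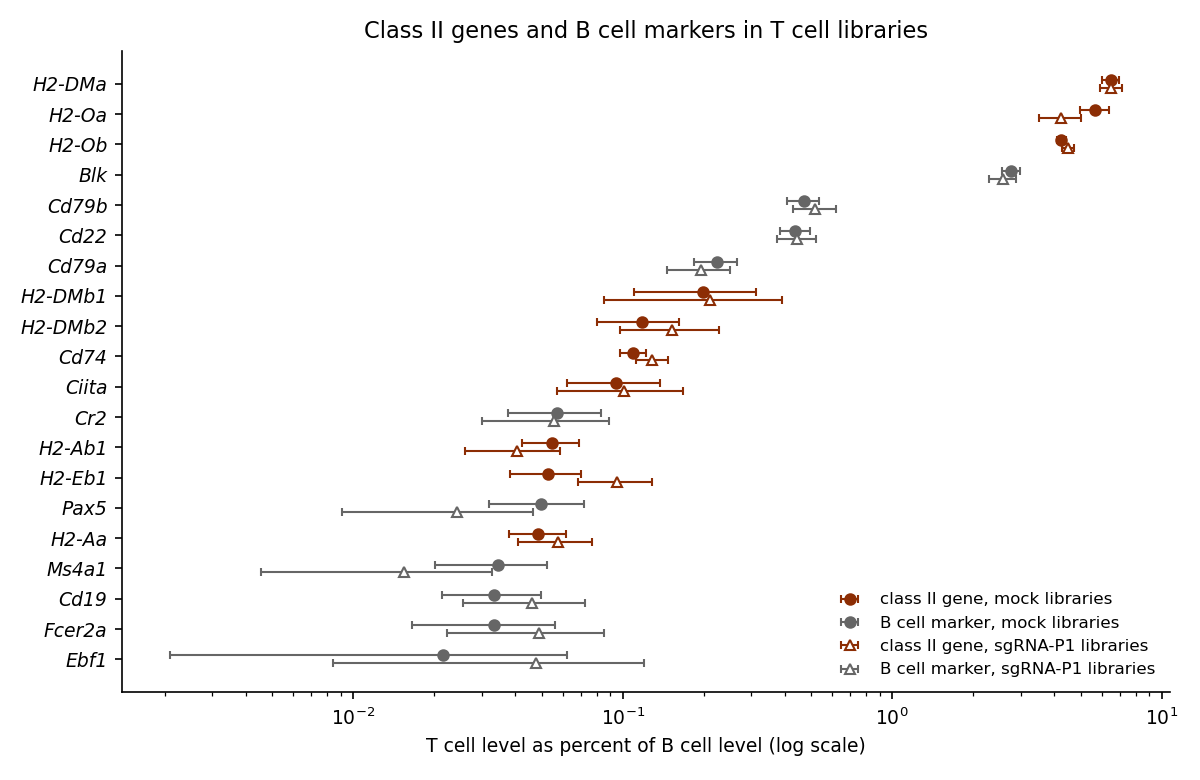
Level in T cells as a percentage of the level in B cells (log scale) for the class II genes and 10 B cell markers, in the mock pair (filled) and the sgRNA-P1 pair (open), with 95% counting intervals. H2-DMa, H2-Oa and H2-Ob at 4.25 to 6.47% in the mock pair lie above all markers, while the other class II genes lie among them. The H2-DMa level in T cells may hold reads of the overlapping gene Brd2, which was not tested.

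Other presenting cells could also bring class II RNA into a T cell library, and their markers were measured. B cell markers summed to 37.9 and 34.7 CPM in mock and sgRNA-P1 T cells against 12739 to 12847 in B cells, with 6 of 10 under 1 CPM in T cells and none at 0. Dendritic cell markers summed to 50.8 and 49.2 CPM in T cells and 10.5 to 12.4 in B cells. Of that sum Ccr9, a chemokine receptor that T cells also carry, gave 44.9 CPM in mock T cells. Itgax, another of these markers, stood at 4.88 CPM in mock T cells, 5.31 in sgRNA-P1 T cells and 1.66 in mock B cells. In mock T cells 8 of the 10 were under 1 CPM, and Clec9a, Clec10a and Batf3 were at 0 reads. Macrophage and monocyte markers summed to 102 CPM in both T cell libraries and 13.8 to 14.8 in B cells, with 10 of 12 under 1 CPM in T cells and C1qa, Vsig4 and Fcgr1 at 0 reads in mock T cells. Ly6c2 at 65.4 CPM and Ccr2 at 35.0, which some T cells also carry, gave nearly all of the sum in mock T cells. The part of any such cells in the class II levels of T cells was not tested.

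Within the class II region, neighbours that serve MHC class I were not lower in mock T cells. Tap1 and Tap2, the peptide transporter of class I, stood at 441 and 168 CPM in mock T cells and 368 and 106 in mock B cells. Psmb8 and Psmb9, subunits of the immunoproteasome, stood at 138 and 133 CPM in mock T cells and 113 and 120 in mock B cells. Tap2 was past 1.5-fold higher in T cells, at a log2 fold change of 0.65, and the other 3 were within 1.5-fold. These 4 genes lie between H2-DMb1 and H2-Ob. Of the 7 other genes of the region at 5 CPM or more in a library, Gm20513 followed the class II pattern, with 37.8 CPM in mock B cells and 0 reads in mock T cells. Its span overlaps that of H2-Eb1, on the opposite strand. Gm50335, within the span of H2-DMa on the opposite strand, went the other way, with 8.44 CPM in mock T cells and 0.591 in mock B cells.

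**Figure D3:**
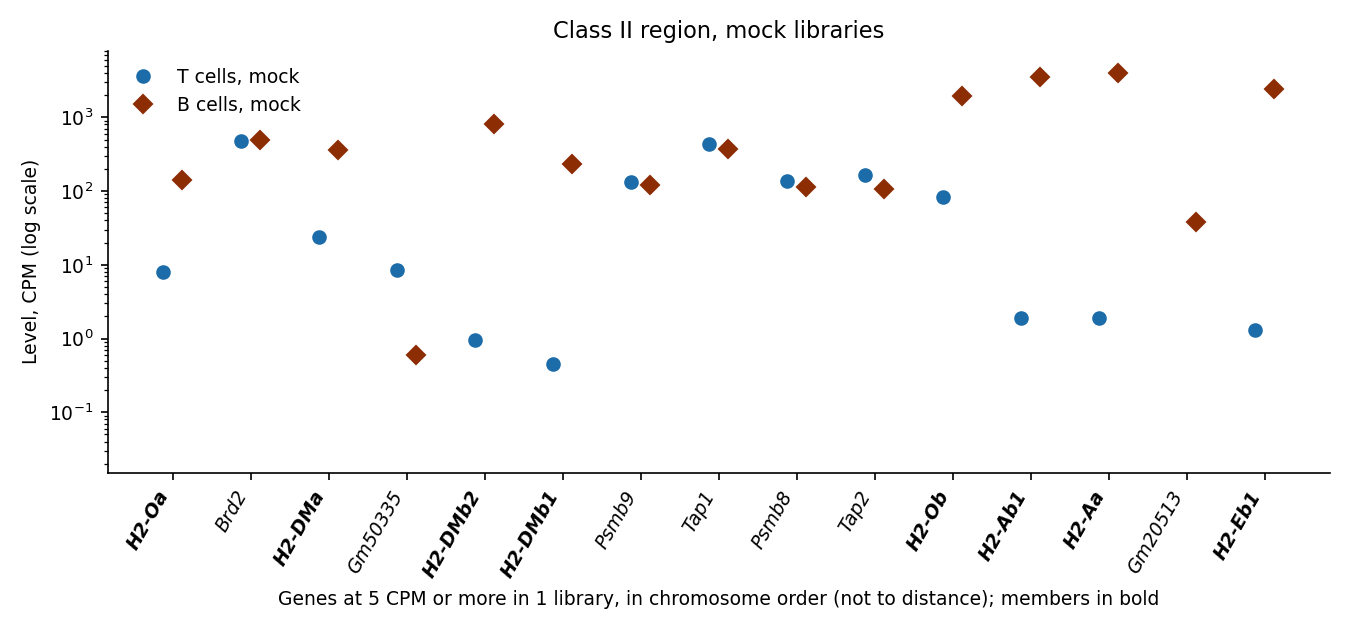
Levels in mock T and mock B cells (CPM, log scale) of the 15 genes of the class II region at 5 CPM or more in a library, in chromosome order, with the class II genes in bold. The class II genes are higher in B cells by 15.4-fold or more, while Brd2, Psmb9, Tap1 and Psmb8 lie within 1.5-fold and Tap2 and Gm50335 are higher in T cells; Gm20513 has no point for T cells because it has 0 reads there.

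Under the guides, no class II gene in B cells passed 1.5-fold in any comparison, and small shifts were seen. With sgRNA-P1, 9 of the 10 genes were lower than in mock B cells and 0 of 10 passed 1.5-fold, where 0.735% of 10062 genes passed it. The median log2 fold change was -0.091, against -0.0077 over all genes tested, of which 52% were below 0. H2-DMb1 was lowest at -0.19 [-0.25 to -0.13], from 231 to 203 CPM. H2-Eb1 followed at -0.14 [-0.16 to -0.12], and H2-Ab1, Ciita, H2-Aa, H2-Ob and H2-DMa lay between -0.10 and -0.079. H2-DMb2 was at -0.045 and Cd74 at -0.0090 [-0.019 to 0.0009], so the invariant chain was the gene nearest 0. H2-Oa alone was higher, at 0.12 [0.041 to 0.19]. The counting interval lay below 0 for 8 of the 10, and for 22.9% of the 2476 genes at 100 CPM or more, a level that all 10 class II genes reach. Many of the 10 were far above it, up to 8197 CPM for Cd74 in mock B cells, where counting intervals are narrower. The 2 shares are therefore not matched for depth.

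With sgRNA-P2, 7 of the 10 genes were lower than in mock B cells and 0 of 10 passed 1.5-fold, where 0.278% of 10061 genes passed it and 51.6% were below 0. The median log2 fold change was -0.042, against -0.0036 over all genes tested. H2-Aa was lowest at -0.067 [-0.084 to -0.051], followed by H2-DMa at -0.059, H2-DMb2 at -0.052, H2-Eb1 at -0.051, H2-Ob at -0.048, Ciita at -0.036 and H2-Ab1 at -0.028. H2-Oa was higher at 0.093 [0.0073 to 0.18], H2-DMb1 at 0.052 [-0.015 to 0.12] and Cd74 at 0.026 [0.014 to 0.037]. The interval lay below 0 for 6 genes and above 0 for 2 (H2-Oa and Cd74), where 10.8% of 2432 genes at 100 CPM or more lay below 0. That share is not matched for depth either. The 2 guides were compared with the same mock library, so their shared directions are not independent.

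Set directly against sgRNA-P2, the sgRNA-P1 B cells were lower for 8 of the 10 genes, 0 of 10 passed 1.5-fold and the median was -0.038. Over all genes, 0.418% of 10059 passed 1.5-fold and 50.6% were below 0, and at 100 CPM or more the interval lay below 0 for 16.8%, against 7 of the 10 class II genes. The 16.8% is again not matched for depth. H2-DMb1 differed most, at 203 against 239 CPM or -0.24 [-0.30 to -0.18], while its near copy H2-DMb2 was at 0.0072 [-0.027 to 0.041], or -0.019 with scaling by total reads. The others were H2-Eb1 at -0.087, H2-Ab1 at -0.074, Ciita at -0.065, H2-Ob at -0.041, Cd74 at -0.035, H2-Aa at -0.027, H2-DMa at -0.020 and H2-Oa at 0.023, or -0.0029 with scaling by total reads. The uncertain division of reads between these 2 genes touches this contrast.

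**Figure D4:**
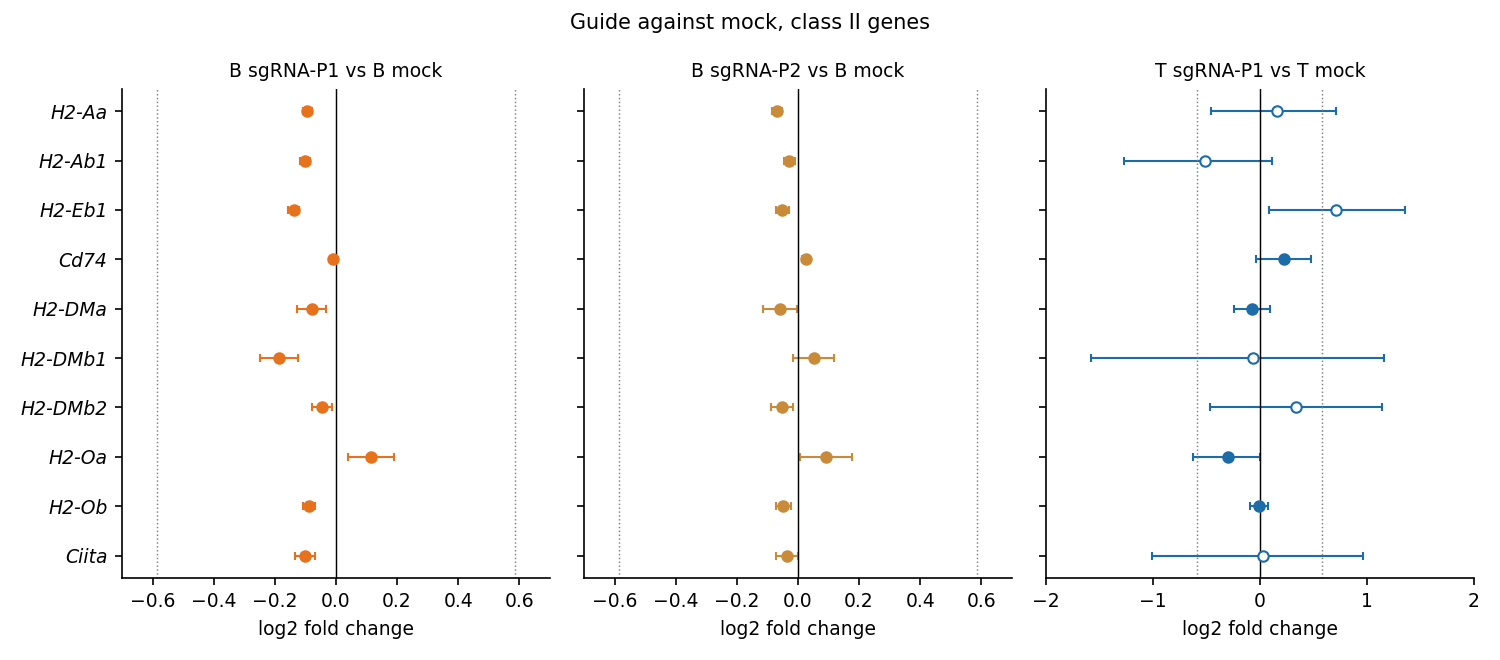
Log2 fold change of each class II gene against mock for both guides in B cells and for the P1 guide in T cells, with 95% counting intervals; dotted lines mark 1.5-fold and open markers are genes under 5 CPM, and the T cell axis is wider. In B cells every gene lies between -0.19 and 0.12, inside the dotted lines.

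The base composition of transcripts moved with the guide comparisons. In B cells, log2 fold change and GC content had a Spearman correlation of -0.50 with sgRNA-P1 (9703 genes), -0.17 with sgRNA-P2 (9704 genes) and -0.45 for sgRNA-P1 against sgRNA-P2 (9700 genes). In T cells with sgRNA-P1 it was -0.23 (9666 genes). Genes are not independent, and they share the libraries. The class II transcripts had a median GC content of 54.5%, against 49.0% over all genes. Once a trend on length and GC was subtracted, the median of the 10 genes with sgRNA-P1 was -0.014 with 5 of 10 below 0, with sgRNA-P2 -0.017 with 6 of 10 below 0, and for sgRNA-P1 against sgRNA-P2 -0.010 with 5 of 10 below 0. With sgRNA-P1 H2-Oa then stood at 0.24, Cd74 at 0.11 and H2-Ab1 at 0.026, while H2-Aa at -0.10 and H2-Ob at -0.097, the 2 transcripts lowest in GC, were still about where they had been. The lower class II levels with sgRNA-P1 were therefore not seen for the group as a whole under that correction. Of the class I genes of the region, Psmb8 was at -0.30, Psmb9 at -0.29, Tap2 at -0.25 and Tap1 at -0.10 with sgRNA-P1 in B cells, before any correction, further from 0 than most class II genes.

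In T cells only H2-Ob, H2-DMa, Cd74 and H2-Oa reached 5 CPM, and 0 of these 4 passed 1.5-fold with sgRNA-P1, where 0.11% of 10007 genes passed it. H2-Ob was at -0.0074 [-0.095 to 0.080], or 0.0085 with scaling by total reads, and H2-DMa at -0.071 [-0.24 to 0.095]. Cd74 was at 0.23 [-0.033 to 0.48], from 646 reads in the mock and 418 in the smaller guide library. H2-Oa was at -0.30 [-0.62 to -0.0014], from 569 and 255 reads. The median over all genes tested was -0.016. Among the 6 genes under 5 CPM, H2-Eb1 stood at 1.29 and 2.10 CPM, or 0.71 [0.083 to 1.36], from 93 and 84 reads, and the intervals of the other 5 (H2-Aa at 0.16, H2-Ab1 at -0.51, H2-DMb1 at -0.065, H2-DMb2 at 0.34 and Ciita at 0.026) reached across 0. At these depths, 3 reads correspond to 0.0416 CPM in the mock T cell library and 0.0751 in the sgRNA-P1 one.

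Subtracting the P1 guide's effect in B cells from its effect in T cells gave a difference that did not pass 1.5-fold for any of the 4 genes at 5 CPM in both cell types (0 of 4), where 1.31% of 9139 genes passed it. H2-Oa had the widest difference, -0.42 [-0.73 to -0.11], lower than mock in T cells and higher in B cells. Cd74 differed by 0.24 [-0.016 to 0.49], H2-Ob by 0.081 and H2-DMa by 0.0081.

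The 5 libraries were also fitted together with a term for cell type and a term for a guide of either kind against mock (edgeR's quasi-likelihood test, 2 residual degrees of freedom, Benjamini-Hochberg adjustment over 17581 genes). The cell type term called all 10 class II genes, each higher in B cells, where 31.8% of genes were called in that direction. The log2 differences were 3.96 for H2-DMa, 4.35 for H2-Oa, 4.54 for H2-Ob and 8.996 to 11.02 for the other genes, with adjusted p from 5.52e-19 to 1.31e-15. The error behind these p-values is what the 2 terms leave over. That is how far the 2 guides differ in B cells and how far guide effects differ between T and B cells. The edgeR test also draws this error towards a value shared over all genes. Spread between mice or between separate preparations of T and B cells was not measured, so the p-values do not cover it. The guide term called 0 of the 10, where it called 0.0284% of genes, and 0 of the 10 had an unadjusted p under 0.05. The smallest unadjusted p was 0.156, for H2-Ab1 at -0.11. The DESeq2 Wald test also called 10 of 10 for cell type, where it called 4888 of 21486 genes higher in B cells. For the guides it called 0 of 10, where it called 4 of all genes. The fit counts either guide in either cell type as 1 condition, so an effect of 1 guide or in 1 cell type would add to its error.

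The other genes of the pathway were taken from lists, and none at 5 CPM or more passed 1.5-fold in any guide comparison. Between the mock libraries, 18.4% of all genes were past 1.5-fold lower in T cells and 18.6% past it higher, which is the background for the counts that follow. Among 9 genes of proteolysis and loading in endosomes, 5 were past 1.5-fold lower and 3 higher in mock T than in mock B cells. Ctss, cathepsin S, which trims the invariant chain in B cells, stood at 157 CPM in the mock T library and 449 in mock B cells. Ctsh, another cathepsin, stood at 0.416 and 344 CPM, and Ctsz at 29.7 and 185. Ctsl, Ctsd and Ctsb were the 3 that were higher in T cells, at 16.7, 121 and 152 CPM against 2.51, 26.1 and 97.54. With sgRNA-P1 in B cells the median of the 8 genes of this list at 5 CPM was -0.031, and with sgRNA-P2 -0.0052.

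Of 13 genes of the X and Y box complex and its coactivators, 1 was past 1.5-fold lower and 2 higher in mock T than in mock B cells. Rfx5, the DNA-binding subunit of RFX, was the 1 lower, at 30.4 against 123 CPM. Its partner Rfxap, at 22.3 against 14.2 CPM, and Kat2b, an acetyltransferase, at 105 against 41.0 CPM, were the 2 higher. Nfya, a subunit of NF-Y, stood at 76.8 and 114 CPM, Creb1 at 187 and 183, and the coactivators Ep300 and Crebbp at 282 and 214 against 313 and 174. These named genes were thus measured well in both cell types, while Ciita was under 1 CPM in T cells. In B cells the median of the 13 genes was 0.050 with sgRNA-P1 and 0.042 with sgRNA-P2, neither corrected for length and GC. The class II medians were below 0 before that correction. After it they were still below 0, at -0.014 with sgRNA-P1 (5 of 10 genes below 0) and -0.017 with sgRNA-P2 (6 of 10). The 13 genes were not corrected, so their medians cannot be set beside these corrected ones.

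Of 14 factors that act upstream of Ciita, 8 were past 1.5-fold lower and 3 higher in mock T than in mock B cells. Pax5, a B cell identity factor, stood at 0.735 and 1477 CPM. Ebf1, another, stood at 0.0693 and 322 CPM, and Irf8 at 14.4 and 531. Among those higher in T cells were Irf1, a factor of the interferon response, at 274 against 154 CPM, and Prdm1, a repressor of Ciita in plasma cells, at 11.5 against 5.03. In B cells with sgRNA-P1, Pax5 was at 0.070 [0.047 to 0.093], Ebf1 at 0.19 [0.14 to 0.24] and Irf8 at -0.078 [-0.12 to -0.039]. The 14 factors ranged from -0.22 to 0.25 there, with intervals above 0 for 3 and below 0 for 2. All were within 1.5-fold, and none of these values was corrected for length and GC.

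Of 9 genes for turnover and transport of class II, 6 reached 5 CPM in either mock library, of which 2 were past 1.5-fold lower (Marchf1 and Cd83) and 2 higher (Cd82 and Cd9) in mock T cells. Marchf1, a ubiquitin ligase that takes class II off the surface, stood at 0.513 CPM in the mock T library and 331 in mock B cells, and was at 0.25 [0.20 to 0.30] with sgRNA-P1 and -0.023 [-0.079 to 0.034] with sgRNA-P2. Cd83, which opposes Marchf1, stood at 13.6 and 360 CPM and was at -0.062 and 0.026 with the 2 guides. These guide values of Marchf1 and Cd83 were not corrected for length and GC. Of 8 costimulation genes, 7 reached 5 CPM and 6 were past 1.5-fold lower in mock T cells, among them Cd40 at 0.153 against 132 CPM and Icosl at 9.82 against 517. On the T cell side, Cd4, the coreceptor for class II, stood at 656 CPM in the mock T library and was at -0.0040 [-0.035 to 0.027] with sgRNA-P1.

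The genes whose pattern over the 5 libraries was most like the mean class II pattern were found among 10123 genes, by the distance between centred log2 levels, where 0 is the same shape. They were Cacna1i (0.076), Nid1 (0.18), Fcamr (0.21), Bank1 (0.24), Ackr2 (0.24) and Rubcnl (0.25). Cacna1i, which encodes a calcium channel subunit, stood at 0.735, 0.726, 241, 221 and 235 CPM. Of the class II genes themselves, H2-DMb1 was nearest to that mean at 0.67 and H2-DMa farthest at 4.81.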

How the data were processed

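Polyadenylated RNA of 5 groups was measured. The values are raw read counts per gene, which the authors deposited for 56893 genes in 10 columns of 1 table. HISAT2, featureCounts, hg38 and mm39 are named in the submitters' processing notes. The strand setting and the treatment of reads with several matches were not stated there. The columns of a group proved to be 1 library and were summed (28118839 to 71858511 reads). Levels were scaled by TMM (edgeR 4.0.16, R 4.3.3). Log2 fold changes used a prior of 1 read, genes at 5 CPM or more in the higher group and a size rule of 1.5-fold. Adding back 1 read, taken as lost when a count was divided and rounded down, made the totals of low genes even in 72.0 to 74.8%, the pattern of read pairs counted as 2 reads. Exact 95% intervals were therefore computed on reads divided by 2, and they cover counting error only; differences of effects used a normal approximation on the log scale. DESeq2 1.42.0 and edgeR's quasi-likelihood test were run on the 5 sums. Of these, only the guide term of edgeR's test was also tried on simulated data. The 10 genes and all lists were chosen with earlier results of these data known. All 10 genes were named in each comparison of 2 groups, and of each list at most the 6 highest and any past 1.5-fold with a guide. Genes that make up a count of 3 or fewer (such as Rfxap, Kat2b, Ctsl and Prdm1) and single markers were named after their values were seen. Promoters came from RefSeq on GRCm38.p6, and GC content and transcript identity from GENCODE transcripts on GRCm38. Alternatives were other scalings, priors, minimum levels and size rules, single columns, a length and GC correction, no filter and each library left out.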

Additional observations from a re-analysis of the deposited data

Results flagged for a closer look

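H2-Oa and Cd74 had effects of sgRNA-P1 of opposite sign in T and B cells. H2-Oa was lower than mock in T cells and higher in B cells, a difference of -0.42 on the log2 scale (T minus B, counting interval -0.73 to -0.11). Cd74 was at 0.23 in T cells and -0.0090 in B cells, a difference of 0.24 (-0.016 to 0.49). Both of its intervals reach across 0, and after the length and GC trend was subtracted its values were 0.25 and 0.11, of the same sign. With 1 library per group the differences were not tested, neither reached 1.5-fold, and their cause was not tested.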

How the results depend on the processing

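No change past 1.5-fold and no called difference changed direction under any alternative that was run. The counts of class II genes past 1.5-fold (10 in mock T against mock B cells, 0 in each guide comparison) were the same under each alternative with these exceptions: with no minimum level, H2-Eb1 was past it under the P1 guide in T cells and in the difference of effects (1 of 10 each), and under the smaller of the size rules tried H2-Oa passed in the difference of effects (1 of 4). Without sgRNA-P1 or without sgRNA-P2 B cells, the cell type term called 10 of 10 genes and the guide term 0 of 10. Over all genes, the cell type term called 5573 of 17123 and 5321 of 17642 higher in B cells. The guide term called 18 and 14. Without sgRNA-P2 B cells, 1 class II gene had an unadjusted p under 0.05 for the guides, as with no filter. Without mock T, sgRNA-P1 T or mock B cells, 1 side of a term keeps 1 library, so calls are not given. The cell type difference of H2-DMa, the smallest, was then 3.96, 3.96 and 3.97. Without mock B cells the guide term rests on the T cell pair alone, with H2-Eb1 at 0.70, H2-Ab1 at -0.53 and H2-Oa at -0.31. Scaling by total reads moved 10 of 48 values of single genes by more than their counting interval, and put 10 of 10 genes below 0 for sgRNA-P1 against sgRNA-P2. Subtracting the length and GC trend moved 22 of 48. The sign of values close to 0 changed for 9 of 48 under that trend, 3 under total reads and 2 under DESeq2 size factors, none of them past 1.5-fold, and the median of the class II genes in T cells with the P1 guide went from -0.039 to 0.0091 with no minimum level. The single columns gave the same counts past 1.5-fold and of called genes, but they repeat the same library, and each put the difference of effects of H2-DMa below 0 (-0.023 and -0.015, against 0.0081). No paired analysis was possible because the 2 columns of each group are 1 library and cannot act as pairs. Depth limits the T cell values, where 6 of the 10 genes were under 5 CPM.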
